A study of Mus musculus with 8 samples.

Results

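The cyclin-dependent kinase inhibitors are 7 genes, Cdkn1a, Cdkn1b, Cdkn1c, Cdkn2a, Cdkn2b, Cdkn2c and Cdkn2d, out of 53392 genes in the quantification of newborn mouse cortex. They were chosen by gene symbol, and their 21 transcripts, out of 136202, were summed per gene. The family was proposed with earlier genotype results of these same libraries known, in which Cdkn1a stood out, so every genotype difference of the members below is a description and no test of that choice. The 4 R342X mutant libraries came from cortex of mice of the FVB/N background at postnatal day 0 that carry the R342X mutation of Phf6, an X-linked gene for a nuclear zinc finger protein, and the 4 wild-type libraries came from cortex of the same background and age. The labels name no sex, litter or batch and do not say whether animals were pooled, so the p-values cover only variation among these 8 libraries, part of which could be technical.

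The inhibitors bind cyclin-dependent kinases, the enzymes that drive cells through the division cycle, and they form a pair of structurally unrelated groups. The CIP/KIP proteins p21 (Cdkn1a), p27 (Cdkn1b) and p57 (Cdkn1c) bind complexes of cyclins with their kinases, while the INK4 proteins p16 (from Cdkn2a), p15 (Cdkn2b), p18 (Cdkn2c) and INK4d (Cdkn2d) bind CDK4 and CDK6 and keep D cyclins from activating them. In the developing cortex p27 and p57 are known for bringing progenitors out of the cycle and for supporting the differentiation and migration of newborn neurons, p21 is the classical transcriptional target of the tumour suppressor p53, and Cdkn1c is an imprinted gene expressed from the maternal allele.

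In newborn cortex the level of Cdkn1a in R342X mutants was 1.405 times that in wild type, with no overlap between the libraries of the genotypes, and it stood just outside the threshold of the test. The libraries of the genotypes overlapped for the other 6 members. The reads of Cdkn1a were assigned almost wholly to a transcript from the downstream of its RefSeq start sites. The bases before the upstream start hold a match to the p53 response element. Whether that match acts on either start was not tested. The reads of Cdkn2a were assigned wholly to the transcript of ARF and none to that of INK4a. The bases before both RefSeq starts of Cdkn1a are therefore printed here from RefSeq windows of build GRCm38.p6, 250 bases each up to the base before the RefSeq start, 5′ to 3′ on the strand of the gene. Capitals mark the match to the p53 response element, a pair of adjacent half-sites searched on both strands (the element is its own reverse complement) with at most 1 mismatch over its 20 bases. The windows are chr17:29090729-29090978 and chr17:29093519-29093768 on the plus strand.
Cdkn1a upstream start: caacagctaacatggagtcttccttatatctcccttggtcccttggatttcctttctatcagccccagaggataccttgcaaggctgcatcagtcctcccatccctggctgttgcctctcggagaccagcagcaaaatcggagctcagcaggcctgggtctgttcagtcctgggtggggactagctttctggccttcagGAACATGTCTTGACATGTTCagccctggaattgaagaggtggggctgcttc
Cdkn1a downstream start: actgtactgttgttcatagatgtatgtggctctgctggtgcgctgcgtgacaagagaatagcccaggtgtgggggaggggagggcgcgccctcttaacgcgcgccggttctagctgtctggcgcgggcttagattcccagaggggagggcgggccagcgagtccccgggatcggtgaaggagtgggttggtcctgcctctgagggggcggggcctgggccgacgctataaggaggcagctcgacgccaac

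The match before the upstream Cdkn1a start had 1 mismatch and ended 31 bases before that start. Of 32851 windows of the same length over all RefSeq starts, 25 (0.0761%) held such a match, and of the 9 windows of member genes this was the 1 that did. No match was found in the window before the downstream Cdkn1a start or in the windows of Cdkn1b, Cdkn2a, Cdkn2b, Cdkn2c and Cdkn2d, which says only that these letters are not in those 250 bases. Base composition also differed between the alternative RefSeq starts of Cdkn1a, Cdkn2a and Cdkn2c. The GC content was 54.0% before the upstream Cdkn1a start and 64.8% before the downstream one, with ratios of observed to expected CpG of 0.11 and 0.77. Before the ARF start of Cdkn2a the GC content was 78.4% and the CpG ratio 1.08, and before the INK4a start they were 60.0% and 0.32. Before the upstream RefSeq start of Cdkn2c they were 77.2% and 0.78, and before the downstream one 42.8% and 0.53. RefSeq starts can differ from those of the GENCODE M21 transcripts described below. The upstream Cdkn2c window (109666757 to 109667006) lies inside the first exon of Cdkn2c-202, which starts at 109667189. Its composition is thus not that of the bases before Cdkn2c-202. Reads of Cdkn2c, unlike those of the other pairs, were divided between both of its annotated transcripts. The medians over all windows were 52.4% GC and a CpG ratio of 0.37. RefSeq windows were found for 6 of the 7 genes, and Cdkn1c was not among them.

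As a check of the labels, Phf6 was at 39.3 to 43.6 CPM (read counts scaled to a common library size with TMM factors) in mutants and at 72.1 to 91.9 CPM in wild type. Xist stayed at or below 0.664 CPM in the 8 libraries. The Y-linked Ddx3y was at 54.5 to 72.2 CPM in mutants and at 78.3 to 117.4 CPM in wild type, with no overlap. Library totals were 30469745 to 39453169 estimated reads in mutants and 48841467 to 74266937 in wild type, so the low members were counted with fewer reads in mutants. The first principal component of log2 CPM, with 35.3% of the variance, split the libraries into set 1, which holds the first 3 mutant replicates and wild-type replicate 1, and set 2, which holds mutant replicate 4 and the remaining 3 wild-type replicates, and differences within these sets are given beside the pooled ones. Each within-set difference has a single library on 1 side and so no replicate error.

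Levels are compared between genes in TPM, the read count per effective transcript length scaled to a fixed sum in each library. In both genotypes the order from high to low was Cdkn1c, Cdkn1b, Cdkn2d, Cdkn1a, Cdkn2c, Cdkn2b and Cdkn2a, and no neighbours in that order overlapped between libraries of a genotype. The mean TPM ratios of neighbours in that order were 1.48, 2.06, 1.80, 3.09, 8.32 and 2.99 in mutants and 1.52, 2.26, 2.35, 1.90, 10.7 and 2.32 in wild type. The first place of Cdkn1c leans on its short transcript Cdkn1c-205 (667 bases), with a mean of 46.4 TPM in wild-type cortex. There its long transcripts Cdkn1c-201 and Cdkn1c-202 had means of 56.5 and 25.3 TPM, and Cdkn1b 89.3 TPM. On counts, which are not divided by length, Cdkn1b lay above Cdkn1c. Its mean was 132.9 against 82.5 CPM in wild-type cortex, and 129 against 77.5 CPM in R342X cortex. Cdkn1c and Cdkn1b together dominated: of the TPM of the family, Cdkn1c held 44.3% ± 4.24 in mutants and 46.5% ± 2.07 in wild type, and Cdkn1b held 30.0% ± 2.00 in mutants and 30.7% ± 1.59 in wild type (SD, n = 4 each). The share of Cdkn1a was 8.07% ± 0.61 in mutants and 5.77% ± 0.32 in wild type. In bulk tissue, fewer cells that express a gene and less RNA of it per cell cannot be told apart.

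**Figure D1:**
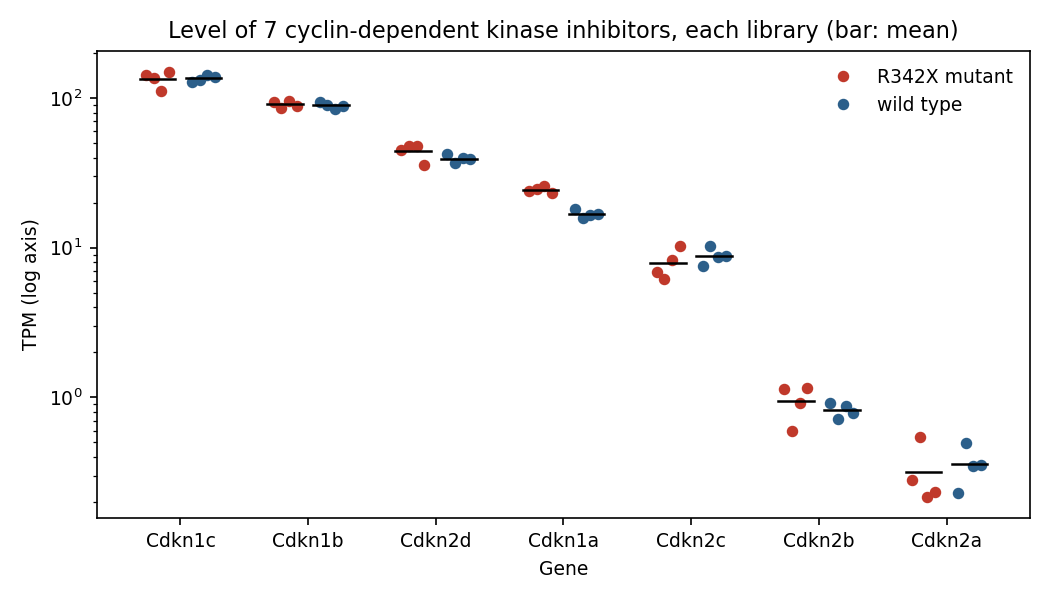
TPM on a log axis for the 7 inhibitor genes in order of their wild-type mean, with 1 point per library (R342X mutant left, wild type right, replicates 1 to 4 from left to right) and a bar at the mean. Cdkn1a is the gene whose mutant libraries (23.2 to 25.8 TPM) all lie above its wild-type libraries (15.8 to 18.1 TPM), and levels span from below 1 TPM for Cdkn2a to above 100 for Cdkn1c.

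Cdkn1a encodes p21, an inhibitor of cyclin complexes with CDK2 that also binds PCNA, the sliding clamp of DNA replication. It lies on chromosome 17 from 29090976 to 29100727 on the plus strand (GRCm38, GENCODE M21). Its level was 24.1, 24.6, 25.8 and 23.2 TPM in mutant replicates 1 to 4, against 18.1, 15.8, 16.6 and 16.7 TPM in wild-type replicates 1 to 4. The lowest mutant library thus lay above the highest wild-type library. The means were 24.4 ± 1.08 TPM in R342X cortex, against 16.8 ± 0.95 TPM in wild-type cortex (SD, n = 4 each). On counts, Cdkn1a was at 23.0 ± 1.27 CPM in R342X cortex, against 16.4 ± 0.72 CPM in wild-type cortex. The log2 fold change was 0.49 ± 0.06 (SE, 95% interval 0.37 to 0.62) in an edgeR quasi-likelihood fit over 20097 tested genes. In that fit the gene stood at rank 5 by p with a Benjamini-Hochberg adjusted p of 0.0529, just outside the 0.05 threshold, so it was not called.

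The difference in Cdkn1a was about as large within each library set, at 0.49 on the log2 scale in set 1 and 0.46 in set 2. Over the alternatives tried it ran from 0.46 to 0.54, and its adjusted p from 3.32e-09 by DESeq2 to 0.377 without wild-type replicate 2. It passed the threshold under 8 of these 17 alternatives, among them DESeq2 and edgeR with a term for the library set (adjusted p = 0.0110). The authors' deposited table lists Cdkn1a with a log2 fold change of 0.44 with a standard error of 0.082 and an adjusted p of 3.35e-06. The background differs widely between these fits: the edgeR fit called 4 genes (0.0199%), all 4 lower in mutants, edgeR with a term for the library set called 0.602%, DESeq2 called 2.64% and the authors' deposited table calls 2.78% of the genes with an adjusted p. An unadjusted p under the same threshold was reached by 13.7% of tested genes in the edgeR fit. Mutant libraries lay wholly above wild-type libraries in 2.95% of tested genes and wholly below in 3.20%. Since the family was proposed from this contrast, nothing is read from Cdkn1a lying wholly above.

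The transcripts of Cdkn1a show where its reads were placed. Transcript Cdkn1a-201, which starts at 29093769 and has 3 exons, held 97.1% ± 0.68 of Cdkn1a TPM in mutants and 95.8% ± 2.35 in wild type (SD, n = 4 each). Its level was 23.7 ± 1.17 TPM in R342X cortex, against 16.1 ± 0.99 TPM in wild-type cortex. Transcript Cdkn1a-202, which starts at 29090979, just after the window with the p53 element printed above, and encodes the same length, was at 0.32 ± 0.20 TPM in R342X cortex, against 0.30 ± 0.21 TPM in wild-type cortex. These low values rest on 17.4 estimated reads summed over mutants and 27.8 over wild type. Transcript Cdkn1a-203 was at 0.26 ± 0.10 TPM in R342X cortex, against 0.31 ± 0.23 TPM in wild-type cortex. The other two had at most 9.55 estimated reads summed over the libraries of a genotype. The 4 coding transcripts encode the same length of 159 codons. Exons of Cdkn1a overlap an unnamed transcribed region on the opposite strand in the annotation (AC167363.2), and since the use of strand is not given in the sources used here, reads of the pair cannot be told apart.

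Cdkn1b encodes p27, an inhibitor of cyclin E and cyclin A complexes that accumulates as cells leave the cycle. It lies on chromosome 6 from 134920401 to 134925513. Its level was 94.2, 86.0, 95.2 and 88.2 TPM in mutant replicates 1 to 4, against 93.9, 90.4, 84.7 and 88.1 TPM in wild-type replicates 1 to 4. These ranges overlapped throughout, with means of 90.9 ± 4.47 TPM in R342X cortex, against 89.3 ± 3.86 TPM in wild-type cortex (SD, n = 4 each). The log2 fold change was -0.04 ± 0.05 (SE, 95% interval -0.14 to 0.06), and its sign turned on the TPM scale. Within the sets the log2 difference was -0.04 and -0.02. Cdkn1b was the member with the narrowest interval, and a difference of the size seen for Cdkn1a lies outside it.

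Reads of Cdkn1b fell on 3 transcripts that encode the same 197 codons. Cdkn1b-201, which splices out a second intron, held 71.7% ± 4.63 of Cdkn1b TPM in mutants and 66.3% ± 2.67 in wild type. Cdkn1b-202, which keeps that intron within a longer last exon, held 23.6% ± 1.62 in mutants and 24.8% ± 0.63 in wild type. Cdkn1b-203, which starts at 134920513 and splices out an intron within the first exon of the other two, held 4.71% ± 3.96 in mutants and 8.89% ± 3.05 in wild type (SD, n = 4 each). The share of Cdkn1b-203 was 8.41%, 0%, 7.53% and 2.90% in mutant replicates 1 to 4, against 4.88%, 11.2%, 8.14% and 11.3% in wild-type replicates 1 to 4. The libraries of the genotypes overlapped, and in mutant replicate 2 no reads were assigned to it. These transcripts share most of their bases, and the error of dividing reads between them is unknown.

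Cdkn1c encodes p57, the third CIP/KIP inhibitor. It lies on chromosome 7 from 143458339 to 143461050. Its level was 141.6, 135.9, 111.3 and 149.5 TPM in mutant replicates 1 to 4, against 127.3, 132.0, 143.4 and 138.6 TPM in wild-type replicates 1 to 4. Mutant replicates 3 and 4 held the lowest and the highest of the 8 values. The means were 134.6 ± 16.5 TPM in R342X cortex, against 135.3 ± 7.13 TPM in wild-type cortex (SD, n = 4 each). The log2 fold change on counts was -0.09 ± 0.10 (SE, 95% interval -0.28 to 0.10). Sets 1 and 2 each gave a log2 difference of 0.05, opposite in sign to the pooled value.

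Cdkn1c reads were split between long and short transcripts. Cdkn1c-201, of 335 codons, held 40.5% ± 1.47 of its TPM in mutants and 41.7% ± 1.63 in wild type. Cdkn1c-202, of 348 codons, held 17.95% ± 1.14 in mutants and 18.7% ± 2.50 in wild type. The short Cdkn1c-205 held 35.8% ± 1.396 in mutants and 34.2% ± 1.602 in wild type (SD, n = 4 each). By estimated reads, which are not divided by length, Cdkn1c-205 held 14.1% in mutants and 13.1% in wild type. Cdkn1c-201 then held 58.5% and 59.0%. A retained-intron transcript, Cdkn1c-204, took 5.14% ± 1.90 in mutants and 4.67% ± 0.98 in wild type. None of these shares separated the genotypes beyond the spread between libraries. Exons of Cdkn1c overlap the antisense gene Gm44732, so its reads carry the same reservation on strand.

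**Figure D2:**
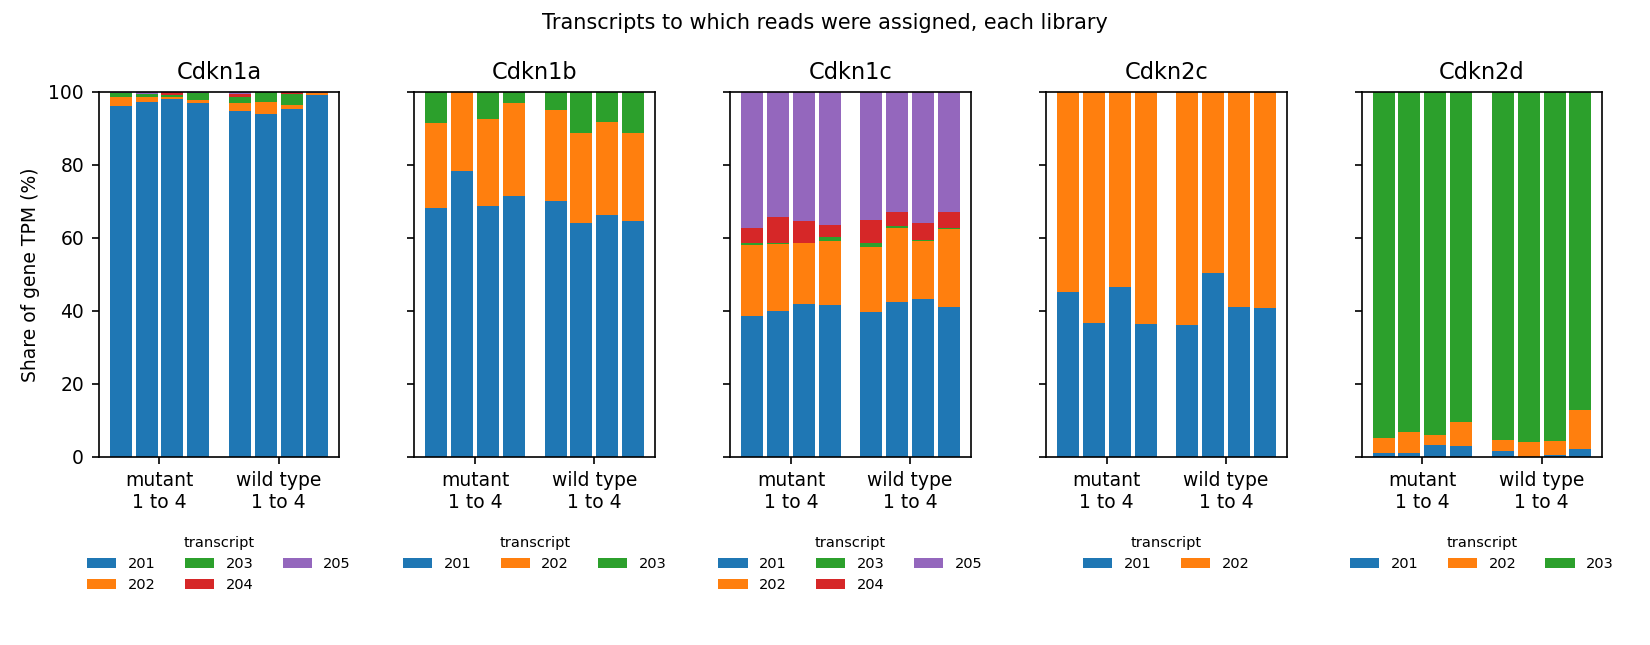
Share of gene TPM (%) assigned to each annotated transcript of 5 inhibitor genes, as stacked bars, with mutant replicates 1 to 4 left and wild-type replicates 1 to 4 right. Cdkn1a-201 holds over 93% of Cdkn1a in each library, Cdkn2c is divided between its transcripts, and Cdkn1b-203 is absent from mutant replicate 2.

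Cdkn2d encodes INK4d, which persists in postmitotic neurons together with p27. It lies on chromosome 9 from 21288410 to 21291407 and was the most abundant INK4 gene. Its level was 45.0, 47.7, 48.1 and 35.5 TPM in mutant replicates 1 to 4, against 42.1, 36.8, 39.7 and 39.2 TPM in wild-type replicates 1 to 4. Mutant replicates 1 to 3 lay above each wild-type library and mutant replicate 4 below each of them. The means were 44.1 ± 5.90 TPM in R342X cortex, against 39.4 ± 2.17 TPM in wild-type cortex (SD, n = 4 each), and the log2 fold change was 0.11 ± 0.09 (SE, 95% interval -0.07 to 0.28). Set 1 gave a log2 difference of 0.17 and set 2 gave -0.17. Transcript Cdkn2d-203, of 166 codons, held 93.1% ± 1.90 of its TPM in mutants and 93.5% ± 4.22 in wild type.

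Cdkn2c encodes p18, an INK4 inhibitor that neural progenitors express. It lies on chromosome 4 from 109660876 to 109667189. Its level was 6.88, 6.20, 8.32 and 10.2 TPM in mutant replicates 1 to 4, against 7.56, 10.3, 8.67 and 8.81 TPM in wild-type replicates 1 to 4. The genotypes overlapped, with means of 7.91 ± 1.78 TPM in R342X cortex, against 8.84 ± 1.13 TPM in wild-type cortex (SD, n = 4 each). Its highest mutant library was mutant replicate 4, and its lowest wild-type library was wild-type replicate 1. The log2 fold change was -0.20 ± 0.17 (SE, 95% interval -0.54 to 0.13), with -0.15 within set 1 and 0.18 within set 2. Cdkn2c has a pair of starts, at 109667189 and 109665372. The transcript of the upstream start, Cdkn2c-202, held 58.8% ± 5.43 of its TPM in mutants and 57.8% ± 5.89 in wild type (SD, n = 4 each), and both transcripts encode 168 codons.

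Cdkn2a and Cdkn2b lie 11645 bases apart on chromosome 4 and were near the floor of these data. Cdkn2b, which encodes the TGF-beta-responsive inhibitor p15 (89306299 to 89311039), had 27, 11, 21 and 25 estimated reads in mutant replicates 1 to 4, against 27, 29, 42 and 34 in wild-type replicates 1 to 4. Its level was 0.95 ± 0.26 TPM in R342X cortex, against 0.83 ± 0.09 TPM in wild-type cortex (SD, n = 4 each), with a log2 fold change of 0.16 ± 0.23 (SE, 95% interval -0.28 to 0.61). That interval covers both 0 and the value of Cdkn1a, so a difference of that size is neither shown nor excluded. Set 1 gave a log2 difference of -0.08 and set 2 gave 0.47.

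Cdkn2a (89274471 to 89294653) encodes a pair of unrelated proteins from alternative first exons, the INK4 inhibitor p16 and ARF, which stabilises p53 by binding MDM2. It had 4, 6, 3 and 3 estimated reads in mutant replicates 1 to 4, against 4, 12, 10 and 9 in wild-type replicates 1 to 4. Its level was 0.32 ± 0.15 TPM in R342X cortex, against 0.36 ± 0.11 TPM in wild-type cortex (SD, n = 4 each). It did not pass the filter on low counts, so 6 of the 7 members were tested. The reads, 16 in mutants and 35 in wild type, were all assigned to Cdkn2a-202, the ARF transcript that starts at 89294653. The INK4a transcript Cdkn2a-201, which starts at 89282192, had 0 reads in the 8 libraries. With 3 reads as the limit that a count of 0 allows, INK4a could hold up to 18.8% of the Cdkn2a reads in mutants and up to 8.57% in wild type, for counting error only. Cdkn2a and Cdkn2b are close relatives in sequence, and the division of so few reads between them and between the Cdkn2a transcripts is uncertain.

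Of the 6 tested members, 0 were called by edgeR, 1 had an unadjusted p under the threshold and 1 was called by DESeq2, and that member was Cdkn1a each time. The log2 fold change was above 0 in 3 of the 6 members (Cdkn1a, Cdkn2b and Cdkn2d) and in 50.3% of all tested genes. In the authors' deposited table the log2 fold changes of the 6 members other than Cdkn1a lie between -0.0073 for Cdkn1b and 0.015 for Cdkn1c. The sources used here do not state whether that table's folds were shrunk toward 0, but its standard errors point that way. They were 0.048 for both Cdkn2a and Cdkn2b, against 0.62 and 0.30 in the DESeq2 fit made here. Its folds near 0 are therefore not read as a measured lack of difference, nor set like for like beside the folds above.

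**Figure D3:**
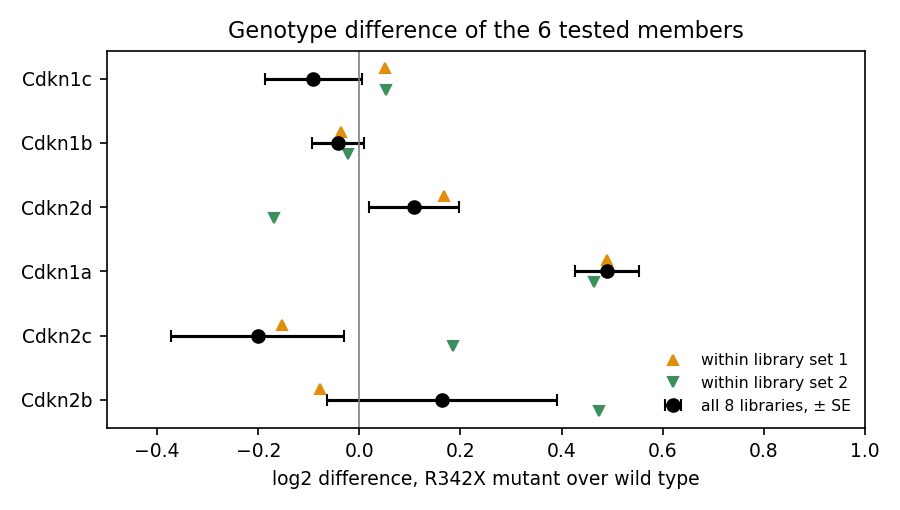
log2 difference (R342X mutant over wild type) of the 6 tested members, with the edgeR estimate over 8 libraries (circle, bar ± SE) and the differences within library set 1 (upward triangle) and set 2 (downward triangle). The estimates of Cdkn1a lie together between 0.46 and 0.49, whereas Cdkn2d, Cdkn2c and Cdkn2b have opposite signs in the sets.

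The genes that the inhibitors act on and that control them were described by 11 lists, 156 tested genes in all, of which 47 (30.1%) had a log2 fold change above 0. The median over these genes was -0.07, against a median of 0.0014 over all tested genes. Over all tested genes the share above 0 was 50.3%. Among the 156 genes edgeR called 0, against 0.0199% of all tested genes. DESeq2 called 2 higher and 6 lower, against 2.64% of all genes with an adjusted p. In edgeR 11 higher and 29 lower had an unadjusted p under the threshold, against 13.7% of all tested genes. The members of each list are described by counts and medians alone.

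The direct targets of the inhibitors come first. Of the 5 genes of D cyclins and their kinases 2 were above 0 (median -0.06, -0.11 to -0.0023 over the alternatives), and the gene with the smallest p, the D cyclin gene Ccnd3, was at 36.8 ± 2.45 CPM in R342X cortex, against 30.5 ± 1.39 CPM in wild-type cortex (log2 fold change 0.27 ± 0.06, SE). Of the 11 genes of E, A and B cyclins with their kinases 3 were above 0 (median -0.14, -0.15 to -0.059 over the alternatives), and Ccna2, the S-phase cyclin, was at 18.1 ± 4.82 CPM in R342X cortex, against 23.5 ± 3.03 CPM in wild-type cortex (log2 fold change -0.38 ± 0.16). Of 8 neuronal and atypical kinase genes 6 were above 0 (median 0.07, 0.0070 to 0.11 over the alternatives). Cdk5r2, which activates the postmitotic kinase CDK5, was at 147.3 ± 15.2 CPM in R342X cortex, against 120.2 ± 10.3 CPM in wild-type cortex (log2 fold change 0.29 ± 0.08). None of these lists held an edgeR call. DESeq2 called 1 gene of the first list as higher and 0 of the other two, and unadjusted p was under the threshold for 3, 1 and 1 genes of the lists in that order.

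Downstream of the kinases, 4 of 13 genes of the retinoblastoma and E2F families were above 0 (median -0.05, -0.089 to -0.017 over the alternatives), with Tfdp2, a dimer partner of E2F, at a log2 fold change of -0.21 ± 0.06. Of 16 E2F target genes of S phase 2 were above 0 (median -0.07, -0.13 to -0.020 over the alternatives), with Mcm7 of the replicative helicase at -0.30 ± 0.08. Of 15 mitosis genes 0 were above 0. Their median was -0.24, but -0.11 with a term for the library set, -0.12 without mutant replicate 2 and -0.38 without mutant replicate 4, with Cenpf, a kinetochore protein, at 17.2 ± 3.07 CPM in R342X cortex, against 22.2 ± 2.03 CPM in wild-type cortex (log2 fold change -0.37 ± 0.12). edgeR called 0 genes of these 3 lists, DESeq2 called 1 S-phase gene as lower, and 2, 3 and 4 genes of the lists in that order, all lower, had an unadjusted p under the threshold. Summed over the list, mitosis genes reached 193.1, 164.5, 197.1 and 265.7 CPM in mutant replicates 1 to 4, against 236.0, 247.6, 239.3 and 268.4 CPM in wild-type replicates 1 to 4. On this measure mutant replicate 4, the only mutant library of set 2, lay with the wild-type libraries. Its Cdkn1a level was 22.5 CPM, and the other mutants were at 22.0 to 24.8 CPM. This rests on 1 library, and the part of the library set or of dividing cells in these levels was not tested. Other negative regulators of the cycle had 3 of 14 genes above 0 (median -0.11, -0.18 to -0.051 over the alternatives, 0 called by edgeR or DESeq2, 3 lower at unadjusted p), with Wee1, the inhibitory kinase of CDK1, at -0.30 ± 0.10.

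The regulators of the inhibitors were likewise mostly below 0. Of 31 transcriptional regulators of the INK4 and CIP/KIP genes 9 were above 0 (median -0.09, above 0 under 2 of 17 alternatives). edgeR called 0 of them, DESeq2 called 1 higher and 3 lower, and 2 higher and 10 lower had an unadjusted p under the threshold. Neurog2, the proneural factor of cortical progenitors and also a member of the intermediate progenitor markers below, had the smallest p of the list, at 4.87 ± 0.43 CPM in R342X cortex, against 7.22 ± 0.42 CPM in wild-type cortex (log2 fold change -0.57 ± 0.10, edgeR adjusted p = 0.141). Of 13 genes for the turnover of CIP/KIP proteins 4 were above 0 (median -0.04, above 0 under 2 of 17 alternatives, 0 edgeR calls, 1 DESeq2 call lower, 1 higher and 2 lower at unadjusted p), with Cul1, the scaffold of the SCF ubiquitin ligase that degrades p27, at -0.16 ± 0.04. Of 14 imprinted genes, among them neighbours of Cdkn1c, 7 were above 0 (median -0.00075, with its sign turned under 10 of 17 alternatives, 0 calls by either tool, 4 higher at unadjusted p), with the growth factor adaptor Grb10 at 0.18 ± 0.06.

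The p53 targets other than Cdkn1a had log2 fold changes of at most 0.26, with wide errors for some, such as Btg2 (0.15 ± 0.25, SE). Cdkn1a was chosen because it stood out in these libraries, so nothing is read from its higher value of 0.49. The part of p53 in the level of Cdkn1a was not tested. Of 23 tested targets 9 were above 0 and 14 below (median -0.05). Of the 23, 0 lay wholly higher in mutants and 1 wholly lower, where 2.95% and 3.20% of all tested genes did, so these counts are near the background. edgeR called 0 and DESeq2 called 1 lower, where it called 2.64% of all genes with an adjusted p. In edgeR 1 higher and 4 lower had an unadjusted p under the threshold, where 13.7% of all tested genes did. Ddit4, a stress-induced inhibitor of mTOR signalling, had the smallest p, at 61.0 ± 2.51 CPM in R342X cortex, against 69.8 ± 1.83 CPM in wild-type cortex (log2 fold change -0.20 ± 0.05). Summed, the 23 targets reached 832.0, 821.3, 816.7 and 830.0 CPM in mutant replicates 1 to 4, against 838.9, 868.7, 845.9 and 857.4 CPM in wild-type replicates 1 to 4. Each mutant library was thus below each wild-type library, by little, and no background share is given for such sums. A sum is carried by its most abundant genes, and the sign of the list's median turned under 3 of 17 alternatives, to at most 0.0082.

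**Figure D4:**
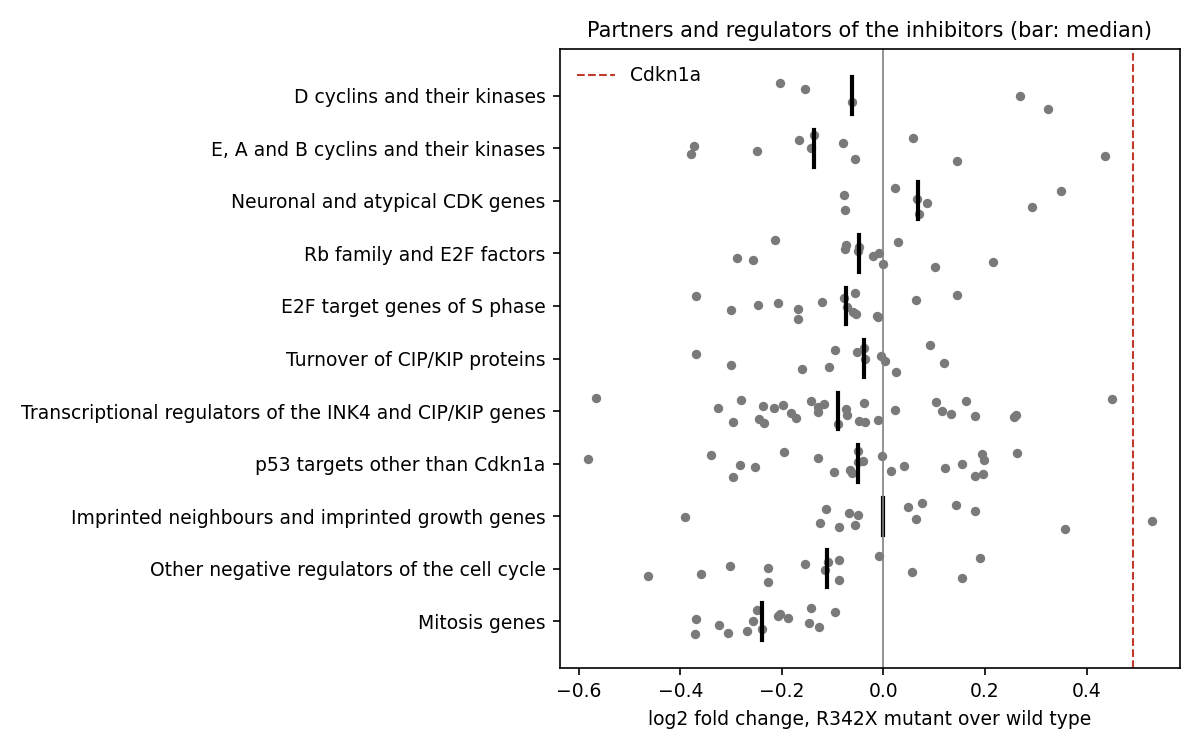
log2 fold change (R342X mutant over wild type) of each tested gene in 11 lists of partners and regulators of the inhibitors, 1 point per gene, with a bar at the list median and a dashed line at Cdkn1a (0.49). The 15 mitosis genes all lie below 0, and the p53 targets lie on both sides of 0.

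Summed levels of cell type markers were taken in the same libraries. Astrocyte markers, of which 6 of 8 were above 0 (median 0.30, but 0.15 with a term for the library set and 0.18 without wild-type replicate 4), summed to 743.6 to 853.7 CPM in mutant libraries, against 620.7 to 718.7 CPM in wild-type libraries, with no overlap. Cortical neuron markers, 3 of 10 above 0 (median -0.05, above 0 under 2 of 17 alternatives), summed to 3763 to 3921 CPM in mutant libraries, against 3976 to 4200 CPM in wild-type libraries, also with no overlap. Intermediate progenitor markers, 1 of 5 tested above 0 (median -0.38), summed to 85.5 to 111.1 CPM in mutant libraries, against 121.1 to 127.9 CPM in wild-type libraries, likewise with no overlap. No background share is given for such sums, and each is carried by its most abundant genes. Means in R342X against wild-type cortex were 1955 against 2086 CPM for Tubb3 among the neuron markers. They were 321.7 against 261.8 CPM for the astrocyte marker Apoe and 50.9 against 70.8 CPM for the intermediate progenitor marker Insm1. The sums of the other 13 marker lists overlapped between genotypes. Among these, the genes above 0 were 7 of 7 for the oligodendrocyte lineage, 8 of 8 for choroid plexus and ependyma, 10 of 11 for microglia and border macrophages, 9 of 10 for endothelial cells, 8 of 9 for meningeal fibroblasts and 5 of 8 for pericytes and smooth muscle. They were 1 of 10 for radial glia and 2 of 8 for interneurons. For markers of red blood cells they were 3 of 6, for striatum 4 of 8, for hippocampus 4 of 6, and for thalamus and hypothalamus 4 of 7. Genes of heat shock and dissection stress had 7 of 9 above 0 (median 0.16, 0.10 to 0.25 over the alternatives). edgeR called 0 of these 9, against 0.0199% of all tested genes. DESeq2 called 2 higher and 1 lower, against 2.64% of all genes with an adjusted p. In edgeR 4 higher and 1 lower had an unadjusted p under the threshold, against 13.7% of all tested genes. Their sum was 982.2 to 1224 CPM in mutant libraries, against 981.5 to 1136 CPM in wild-type libraries, and mutant replicate 4 was the lowest mutant library, at 982.2 CPM. DESeq2 also called 3 of 8 astrocyte markers higher and 3 of 5 intermediate progenitor markers lower. Of the 10 cortical neuron markers it called 1 higher and 2 lower. edgeR called 0 genes of these 3 lists. Some of the remaining marker lists held DESeq2 calls too. No listed marker was at 0 in all libraries. The part of any of these lists in the level of Cdkn1a was not tested.

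**Figure D5:**
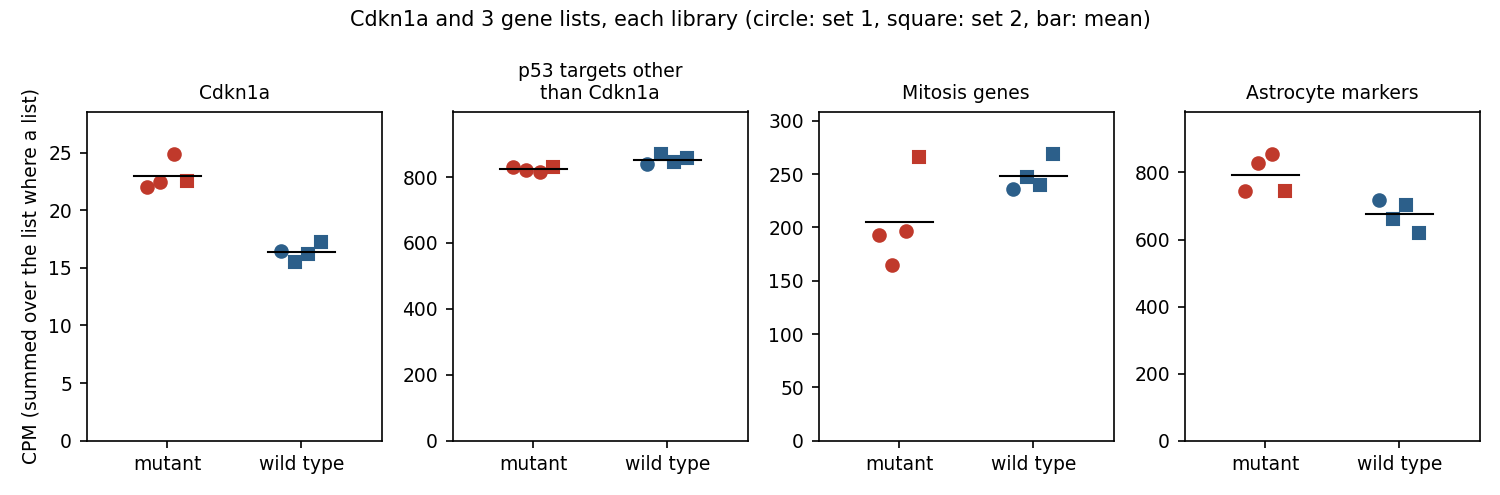
CPM of Cdkn1a and summed CPM of 3 lists in each library (R342X mutant left, wild type right, axes from 0, circles for library set 1 and squares for set 2, bar at the mean). The genotypes do not overlap for Cdkn1a, astrocyte markers (both higher in mutants) and p53 targets (lower in mutants). For mitosis genes mutant replicate 4, the only mutant library of set 2, lies among the wild-type libraries at 265.7 CPM.

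The genes with the profile most like that of Cdkn1a over the 8 libraries were found by the root-mean-square difference between centred log2 CPM values, among 12572 protein-coding genes. They were Elovl7, a fatty acid elongase (difference 0.081), Notum, which inactivates Wnt ligands (0.082), Aloxe3, a lipoxygenase (0.083), Kctd12b (0.085) and Gal3st1, the sulfotransferase that makes sulfatide (0.085). The median difference over all candidates was 0.27. Elovl7 was at 3.53 CPM in mutant libraries, against 2.41 CPM in wild-type libraries (log2 fold change 0.55 ± 0.11, edgeR adjusted p = 0.159). Aloxe3 was at 9.45 CPM in mutant libraries, against 7.15 CPM in wild-type libraries (0.40 ± 0.09, edgeR adjusted p = 0.179). Folds like that of Cdkn1a follow from choosing genes by likeness to its profile. For Cdkn1c the nearest profiles were those of C1qtnf6 (difference 0.027), Pom121 (0.044), BC024139 (0.046), Rpap3 (0.048) and the E2F family gene E2f8 (0.049), against a median of 0.19. Genotype, library set and depth all vary among the 8 libraries and can shape any such profile, so the likeness is a description of these libraries.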

How the data were processed

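Messenger RNA of newborn mouse cortex was sequenced in 4 R342X mutant and 4 wild-type libraries. Per the submitters' processing notes, the authors used Salmon 0.12.0 and DESeq2 with GRCm38. Per the file headers, the deposited files give an estimated count (NumReads), an effective length and a TPM for each transcript. The authors also deposited a table of the genotype comparison with a signal level per gene (not printed here), a log2 fold change and p-values. Its model is not given in the sources used here. Read filters and use of strand are not given either.

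The counts of a gene's transcripts were added and rounded to whole numbers. Genes passing the default edgeR filter (20097, with at least 99.9% of the reads of each library) entered a quasi-likelihood F test of genotype alone (edgeR 4.0.16, R 4.3.3), two-sided, with library sizes scaled by TMM, Benjamini-Hochberg adjustment and a threshold of 0.05, after a check on simulated data. A standard error is the log2 fold change over the square root of F, and 95% intervals use the normal distribution. The within-set and profile values use log2 CPM with a prior count of 2. Alternatives used DESeq2 1.42.0, limma 3.58.1 on log2(TPM + 0.1) and log2(TPM + 1), other filters and scalings, transcript length offsets, the library set or the replicate number as a term, and fits without each library. Positions and transcripts come from GENCODE M21, whose GRCm38 build matches that of the files, and promoter windows from RefSeq.

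The members, lists and alternatives were chosen with earlier results of these data known. All members were named. Of each pathway list called genes were to be named, at most 4, or, with none called, the gene with the smallest p, and for Cdkn1a and Cdkn1c the 5 genes of nearest profile (protein-coding, average log2 CPM of at least 1, predicted genes excluded).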

Additional observations from a re-analysis of the deposited data

Results flagged for a closer look

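The share of Cdkn2d TPM assigned to Cdkn2d-203 in wild type had a library far from the others: it was 95.3%, 95.9%, 95.7% and 87.2% in wild-type replicates 1 to 4, and the gap of replicate 4 to its nearest neighbour was 0.932 of the range. The share of Cdkn2d-202 mirrored it, at 3.23%, 4.10%, 3.86% and 10.7%, with a gap of 0.885 of the range. The same shares in mutant replicates 1 to 4 were 94.8%, 93.2%, 94.1% and 90.4% for Cdkn2d-203 and 4.26%, 5.77%, 2.67% and 6.48% for Cdkn2d-202. Both describe the same library. In all, 36 groups were examined, and chance flags about 1 group in 20 in this way.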

How the results depend on the processing

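Cdkn1a kept a positive log2 fold change under each of 17 alternatives. It passed the threshold with DESeq2 (0.4929, adjusted p = 3.32e-09), with DESeq2 size factors in edgeR (0.4901, 0.0482), without a filter (0.4911, 0.0291), with the stricter filter of 5 CPM in 4 libraries (0.4857, 0.0458), with the replicate block (0.4905, 0.0434) and with a term for the library set (0.4784, 0.0110), each of which gives 1 called member in place of 0. Without single libraries the value ran from 0.4575 to 0.5166, past the threshold when mutant replicate 4 (0.0147) or wild-type replicate 1 (0.0425) was left out, so the count of called members ran from 0 to 1. The count of called genes, 4 in the fit reported, was 402 by DESeq2, 13 without a filter, 20 with the replicate block, 121 with a term for the library set, and 3 to 699 without single libraries, the 699 when mutant replicate 4 was left out and 14 when wild-type replicate 1 was. The labels do not say whether the replicate numbers pair the samples. The correlations of deviations for numbers 1 to 4 were 0.24, -0.03, -0.08 and 0.32, which cannot settle it. The sign turned for Cdkn1b with limma on log2(TPM + 0.1) (0.0255) and log2(TPM + 1) (0.0253) and among single libraries left out (-0.0676 to 0.0014), and for Cdkn1c (0.0532) and Cdkn2c (0.0269) with a term for the library set. The cause was not tested. The rank of each member by wild-type TPM was the same without each wild-type library. It was also the same by CPM per kb of effective length. That measure is proportional to TPM within a library, so its ranks could hardly differ and give no separate check. By share of estimated reads in place of TPM, Cdkn1b-201 held 58.3% in mutants and 53.9% in wild type, and Cdkn2c-202 76.7% and 75.8%. For Cdkn1c-201 these read shares were 58.5% and 59.0%, and for Cdkn1c-205 14.1% and 13.1%. The pathway list medians stayed within the spread between libraries in 172 of 187 values. Depth limits Cdkn2a and Cdkn2b, with at most 42 reads in a library.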
